A study of Homo sapiens with 6 samples.

Results

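The laminin chains LAMA3, LAMA4, LAMA5, LAMB1, LAMB3 and LAMC1, the nidogens NID1 and NID2 and the proteoglycan HSPG2 (perlecan) were examined in breast cancer cells with and without knockdown of the pseudouridine synthase PUS1. These 9 of the 60605 genes in the deposited expression table were picked by their symbols. Of the 9 genes, 6 were tested between the groups, and none of these passed the test. LAMB3 and LAMC1 had the highest levels, LAMB3 carried most of the beta chain signal and LAMA5 most of the alpha chain signal, and LAMA4, NID1 and NID2 did not pass the filter on low counts.

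Basement membranes are thin sheets of matrix on which epithelial cells rest and which invading tumor cells have to cross. Laminins are their adhesive part and are secreted as trimers of an alpha, a beta and a gamma chain, with the alpha chain needed for release of the trimer and for most binding to integrins. Nidogens bridge laminin and type IV collagen, and perlecan is a large heparan sulfate proteoglycan that ties into both networks.

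MDA-MB-231 is a triple-negative breast cancer cell line, and poly(A) RNA was sequenced from 3 libraries with a control hairpin (shControl) and 3 with a hairpin against PUS1 (shPUS1). Both groups were cells of the same line. The study's methods describe hairpins in a puromycin-resistant pLKO.1 lentiviral vector and cells that stayed under puromycin after selection. The labels call the 3 libraries of a group biological replicates, but neither they nor the methods say whether the replicates came from separate infections, so that p-values measure the spread between these libraries. The deposited table heads the shPUS1 libraries with the words PUS1-knockdown-2, and the sources used here do not say which of the PUS1 hairpins that means.

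The designed targets of the 3 PUS1 hairpins are printed because every difference below is between cells with and without one of them. They are given 5′ to 3′ on the plus strand of chromosome 12 (GRCh38), in lower case throughout.
shPUS#1: tgtcgggtcctcacaattcaa
shPUS#2: gcacttcgagaagtacaacca
shPUS#3: gcacgcacaacttccacaatt
The target of shPUS#1 lies at 131932180 to 131932200 and is present in 10 of the 11 PUS1 transcripts of GENCODE release 29. That of shPUS#2 lies at 131941761 to 131941781 and is held by 5 of them, as is that of shPUS#3 at 131941469 to 131941489. In the 100 annotated transcripts of the 9 genes, 0 held a whole target in either orientation. The longest run of a target found there in its sense orientation was 9, 9 and 10 bases for shPUS#1, shPUS#2 and shPUS#3.

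PUS1, which turns uridine into pseudouridine in tRNA and other RNA, served as a check of the labels. Its level was 2.57, 4.66 and 2.18 FPKM in shControl (fragments per kilobase of exonic length and scaled to the library total) and 1.13, 0.95 and 0.93 FPKM in shPUS1. The groups did not overlap, with a log2 fold change of -1.64 (SE 0.32) and an adjusted p of 0.0462 in edgeR's quasi-likelihood test with Benjamini-Hochberg adjustment. That p stood just under the threshold of 0.05, and it exceeded that threshold when any shPUS1 library or shControl replicate 1 was left out (0.0897 to 0.249). Those fits called 0 to 11 of all 14748 genes tested, against 380 with all libraries, so that nearly every call was lost there.

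Library totals ranged from 14241505 to 19625998 counts. Across genes, shControl replicate 2 had a Pearson r of log2 CPM, a count relative to its library's size, of 0.9505 and 0.9521 with the other shControl libraries, against 0.981 between those. Markers of the line were present in all libraries, with VIM at a mean of 379.1 FPKM and a sum of the 4 markers of 535.5 to 626.8 FPKM in shControl and 404 to 452 in shPUS1, while ESR1 and PGR, the hormone receptors that this line lacks, stayed at or under 0.04 FPKM. Of the 6 genes listed as low or absent in the line, ERBB2, EPCAM and GATA3 had means over 1 FPKM, the highest being ERBB2 at 5.665 FPKM. Of 6 fibroblast markers, 2 (COL1A1 and PDGFRB) had a mean over 1 FPKM, and the sum of the list was 2.13 to 8.24 FPKM in shControl and 11.66 to 13.68 in shPUS1. COL1A1 had 0.73 to 2.35 FPKM in shControl and 3.14 to 3.53 in shPUS1, PDGFRB 1.32 to 5.63 and 6.67 to 8.29, and LUM 0.06 to 0.42 and 1.27 to 1.74, each without overlap, while DCN, COL1A2 and PDGFRA were at or under 0.09 FPKM in every library. In log2 CPM, 36.1% of all genes tested had groups without overlap. Of these markers, edgeR's test called LUM (log2 fold change 2.82, adjusted p = 0.0462), but not COL1A1 (adjusted p = 0.11) or PDGFRB (adjusted p = 0.195). The endothelial list had 1 of 5 markers with a mean over 1 FPKM (KDR) and a sum of 0.67 to 2.66 FPKM in shControl and 2.83 to 3.36 in shPUS1. KDR also did not overlap, but was not called (adjusted p = 0.13 in edgeR's test). The leukocyte list had 1 of 4 over 1 FPKM (CD68), with CD3E at 0 and a sum of 37.29 to 42.67 FPKM in shControl and 27.75 to 31.67 in shPUS1. The part of these markers in the results below was not tested. In bulk RNA of this kind, fewer cells that express a gene and less of its RNA per cell cannot be told apart.

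The order of the 9 genes was taken from FPKM, which can be compared between genes because it is divided by length. LAMB3, the beta chain of the laminin in hemidesmosomes, led with a mean over all libraries of 99.76 FPKM (range 68.56 to 113.1). LAMC1, the gamma chain that most laminins share, followed at 44.08 FPKM (35.08 to 48.83). The ranges of these neighbours did not overlap, nor did that of LAMC1 with the gene below it.

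LAMA5, the alpha chain of many adult epithelial basement membranes, had a mean of 14.05 FPKM (9.38 to 22.22). HSPG2 came next at 10.5 FPKM (7.6 to 17.89) and LAMB1, the widespread beta chain, at 8.993 FPKM (8.1 to 9.78). The ranges of LAMA5 and HSPG2 overlapped, although LAMA5 was the higher in 6 of 6 libraries, and HSPG2 exceeded LAMB1 in only 3 of 6. LAMA3, the alpha partner of LAMB3 in hemidesmosomes, lay below all of these at 3.797 FPKM (2.62 to 6.23). The last places went to NID2, NID1 and LAMA4, with means of 0.06, 0.05333 and 0.01333 FPKM and overlapping ranges.

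The place of LAMB1 in this order depended on the length used. The table divides its counts by 18592 bases of exons, whereas its transcript with the longest coding sequence in GENCODE release 29 has 5766 bases. Per kilobase of such transcripts LAMB1 moved to the place below LAMC1 with a mean of 29, above LAMA5 at 17.58, HSPG2 at 13.27 and LAMA3 at 5.16, and the order of the others did not change. Comparisons of one gene between the groups do not depend on this choice.

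**Figure D1:**
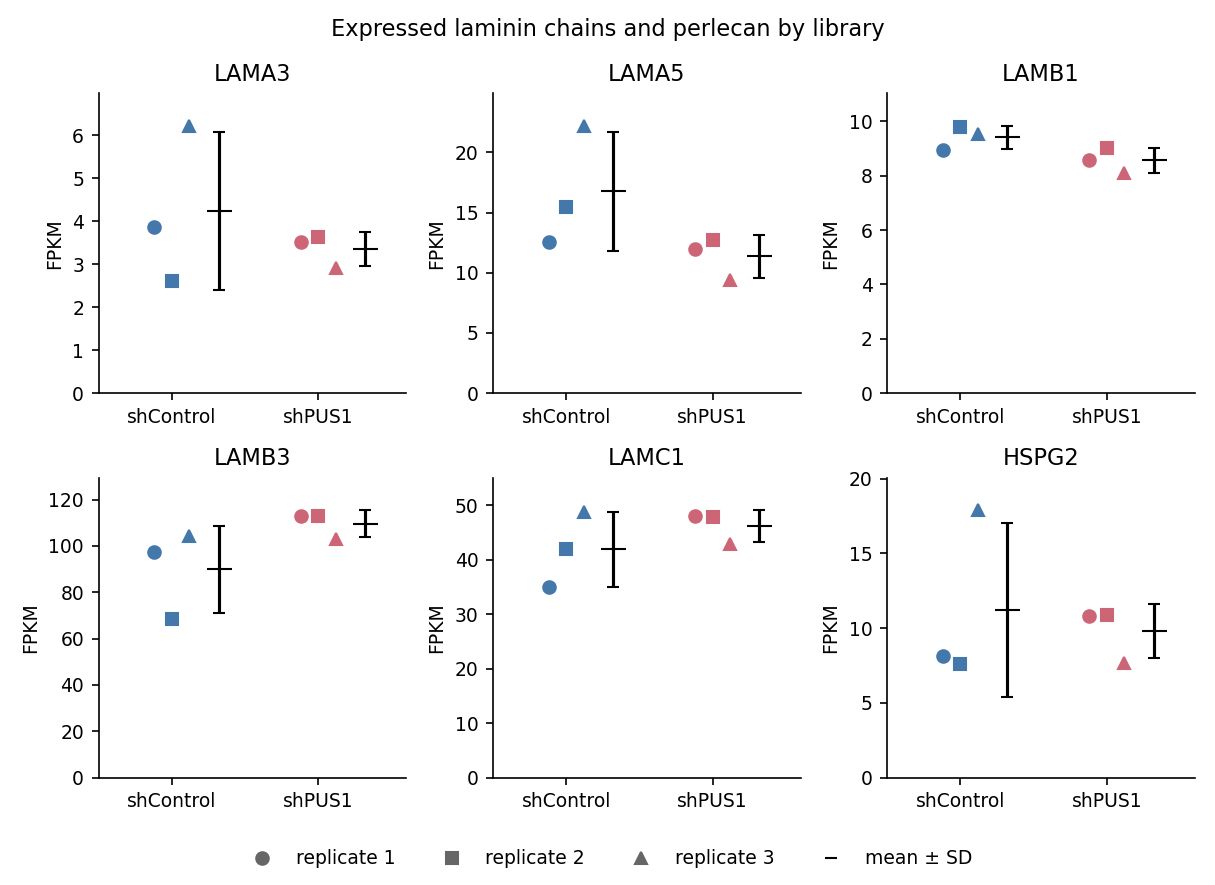
FPKM of LAMA3, LAMA5, LAMB1, LAMB3, LAMC1 and HSPG2 in the 3 shControl (blue) and 3 shPUS1 (red) libraries, with a marker shape per replicate and the mean with its SD beside each group. The groups overlap in each panel, and shControl replicate 3 (triangle) holds the highest value of LAMA3, LAMA5 and HSPG2.

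LAMA5 (chromosome 20, 62307955 to 62367312, minus strand) had the lowest unadjusted p of the 6 genes tested. Its level was 12.53, 15.5 and 22.22 FPKM in shControl and 11.96, 12.72 and 9.38 FPKM in shPUS1. The highest shPUS1 library exceeded the lowest shControl library, so the groups overlapped. Group means were 16.75 ± 4.964 FPKM and 11.35 ± 1.751 FPKM (SD, n = 3 each). The log2 fold change was -0.54 (SE 0.22), with a 95% interval from -1.04 to -0.03. The unadjusted p of edgeR's test was 0.0396, and after adjustment over all 14748 genes tested the p was 0.175. The ADRM1 gene (mean 72.4 FPKM) and LAMA5-AS1 overlap this locus on the plus strand, and 0.569% of the stretches of 100 bases in LAMA5 transcripts also occur in transcripts of these. The strandedness of the counting is not given in the sources used here.

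LAMA3 (chromosome 18, 23689453 to 23956222, plus strand) is the other alpha chain at more than 1 FPKM. Its values were 3.87, 2.62 and 6.23 FPKM in shControl and 3.51, 3.64 and 2.91 FPKM in shPUS1. The shControl libraries spread on both sides of the shPUS1 libraries, which lay within their range. The log2 fold change was -0.30 (SE 0.27, 95% interval -0.94 to 0.33), with an adjusted p of 0.506. Without shControl replicate 3 the estimate turned to 0.05 (adjusted p = 0.879), and without shControl replicate 2 it was -0.54 (adjusted p = 0.0743).

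LAMA4, an alpha chain of vessel and muscle basement membranes (chromosome 6, 112107931 to 112254939, minus strand), had 2, 1 and 5 counts in shControl and 4, 2 and 2 in shPUS1. It did not pass the filter on low counts, and fitted without that filter it had a log2 fold change of -0.16 with a 95% interval from -2.34 to 2.01 (adjusted p = 0.96). At this depth the interval was too wide to show a difference of the size seen in the other chains.

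LAMB3 (chromosome 1, 209614870 to 209652425, minus strand) had 97.15, 68.56 and 104.1 FPKM in shControl and 112.8, 113.1 and 102.8 FPKM in shPUS1. The groups overlapped in FPKM through shControl replicate 3 and shPUS1 replicate 3, while in log2 CPM after scaling they did not. Means were 89.94 ± 18.84 FPKM and 109.6 ± 5.862 FPKM (SD, n = 3 each). The log2 fold change of 0.31 (SE 0.15) had a 95% interval from -0.04 to 0.67, with an adjusted p of 0.245. The low value belonged to shControl replicate 2, and without that library the estimate was 0.17 (adjusted p = 0.21).

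LAMB1 (chromosome 7, 107923799 to 108003213, minus strand) varied least. It had 8.95, 9.78 and 9.53 FPKM in shControl and 8.59, 9.01 and 8.1 FPKM in shPUS1. Only shPUS1 replicate 2 rose above the lowest shControl library. Its log2 fold change was -0.12 (SE 0.11, 95% interval -0.38 to 0.15), with an adjusted p of 0.546. The SD of its log2 CPM was 0.10 in shControl and 0.07 in shPUS1, against medians of 0.32 and 0.12 over all genes tested. The DLD gene (22.6 FPKM) overlaps it on the plus strand.

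LAMC1 (chromosome 1, 183023420 to 183145592, plus strand) had 35.08, 41.92 and 48.83 FPKM in shControl and 47.97, 47.85 and 42.83 FPKM in shPUS1. Its highest value was in shControl replicate 3, and the shPUS1 libraries lay within the range of shControl. The log2 fold change was 0.16 (SE 0.14, 95% interval -0.17 to 0.50) with an adjusted p of 0.498.

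HSPG2 (chromosome 1, 21822244 to 21937310, minus strand) was the most variable of the tested genes. Its level was 8.12, 7.6 and 17.89 FPKM in shControl and 10.78, 10.9 and 7.69 FPKM in shPUS1. A single library, shControl replicate 3, stood above all others. The log2 fold change was -0.16 (SE 0.32, 95% interval -0.90 to 0.58), with an adjusted p of 0.776, and without that library it was 0.32 (adjusted p = 0.271). LDLRAD2, which overlaps this gene on the plus strand and shares 9.02% of its stretches of 100 bases, had no more than 0.0333 FPKM on average.

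NID1 (chromosome 1, 235975830 to 236065109, minus strand) and NID2 (chromosome 14, 52004803 to 52069228, minus strand) encode the linkers between laminin and collagen. NID1 had 15, 0 and 3 counts in shControl and 2, 7 and 2 in shPUS1, or 0.17, 0, 0.04, 0.02, 0.07 and 0.02 FPKM. Its count of 0 in shControl replicate 2 allows a level of up to 0.0263 FPKM. NID2 had 2, 4 and 6 counts in shControl and 8, 13 and 7 in shPUS1, or 0.02, 0.03, 0.07, 0.07, 0.11 and 0.06 FPKM, with overlap of the groups in FPKM. Fitted without the filter on low counts, the log2 estimates were -0.89 for NID1 (adjusted p = 0.625) and 1.06 for NID2 (adjusted p = 0.496), with 95% intervals from -2.94 to 1.16 and from -0.40 to 2.53. Of the NID2 transcripts, 24.4% of the stretches of 100 bases are shared with RTRAF, which lies on the opposite strand at 28.5 FPKM. The sum of both nidogens was highest in shControl replicate 1 at 0.19 FPKM, where LAMC1, the chain to which nidogen binds, exceeded it 184.6 times.

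Of the 9 genes, 6 were tested and 0 were called at an adjusted p under 0.05, where edgeR called 380 of 14748 genes (2.58%), of which 256 were higher in shPUS1 (1.74% of the genes tested) and 124 lower (0.841%). The narrower rule that also asked for a log2 fold change of 1 or more in size called 0 of the 6 as well, against 1.37% of all genes. At an unadjusted p under 0.05 there was 1 gene, LAMA5, against 25.5% of all genes. LAMB3 was the 1 gene whose groups did not overlap in log2 CPM, which 36.1% of all genes reached. DESeq2, which gave no adjusted p to 1146 of the 14748 genes, called 0 of the 6 and 12.7% of all genes. Without shControl replicate 2, edgeR called 0 of the 6 and 19.2% of all genes. The count was also 0 in the other alternatives, making 17 in all. Several of them called few genes of any kind, with 11 of 14748 without shControl replicate 1 and 18 with replicate number as a block. Without shPUS1 replicate 1, 2 or 3 the totals were 11, 5 and 0. A count of 0 members in those fits could hardly have come out otherwise.

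Estimated differences were small. The median log2 fold change of the 6 genes was -0.14 and the median of its absolute value 0.23, against -0.03 and 0.31 over all genes tested. The 95% intervals of 5 of the 6 genes held 0, and those of 5 of the 6 lay within 1 of 0 on the log2 scale. A lack of a call therefore left room for changes up to those bounds.

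**Figure D2:**
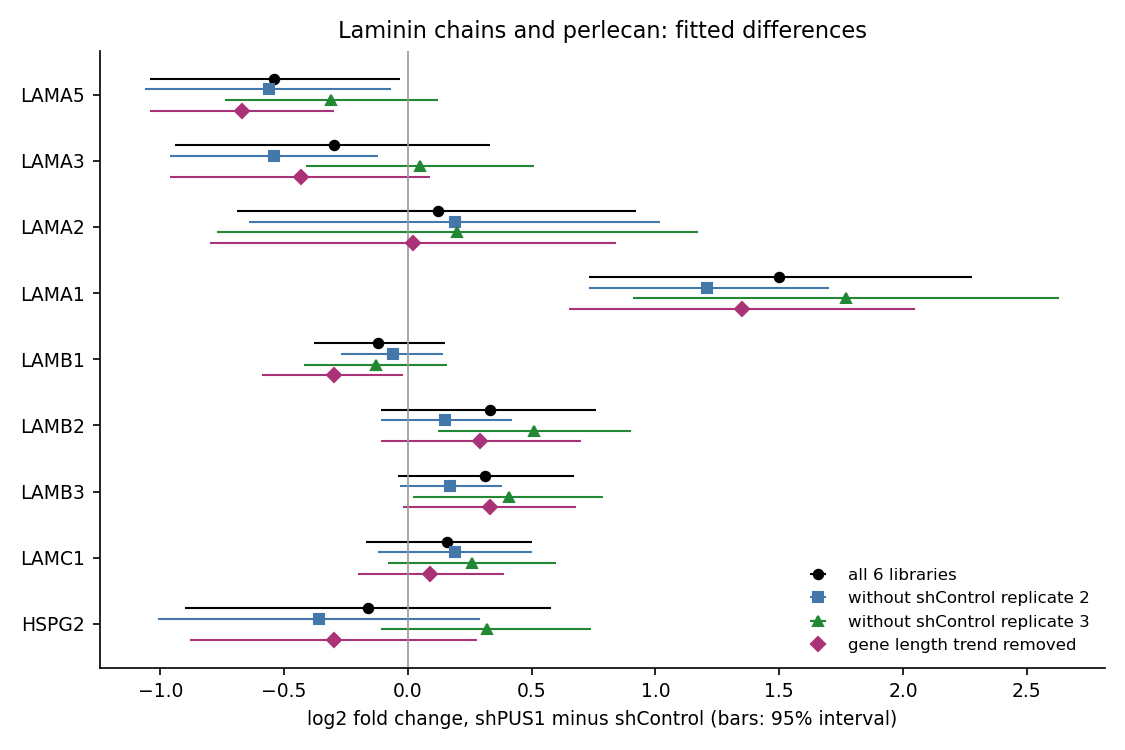
Fitted log2 fold change (shPUS1 minus shControl, x axis) of the tested laminin chains and HSPG2, with 95% intervals, from all 6 libraries, without shControl replicate 2 or 3, and with the gene length trend removed. LAMA5 stays below 0 and LAMB3 above 0 in each, LAMA3 and HSPG2 cross 0 when shControl replicate 3 is left out, and LAMA1 stands apart at 1.5.

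The libraries differed by gene length. For each gene, the shControl mean of log2 CPM was subtracted from the shPUS1 mean. The median of this difference was 0.16 among genes with more than 12000 bases of exons (1185 genes) and -0.132 among genes of 1000 to 2000 bases. The groups overlapped by library, in log2 CPM minus each gene's mean over the 6 libraries. Its medians for the longest genes were -0.203, -0.124 and 0.074 in shControl and 0.092, 0.172 and -0.003 in shPUS1, lowest in shControl replicates 1 and 2. LAMA3, LAMA5, LAMB1 and HSPG2 have between 14291 and 18592 bases, so that the median difference of long genes had the sign opposite to their estimates. LAMB3 with 4647 bases fell among the genes of 4000 to 8000 bases, with a median difference of 0.001, and LAMC1 with 8446 bases among those of 8000 to 12000 bases, with 0.088.

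With a smooth trend on length removed from each library, the log2 fold change of LAMA5 was -0.67 (95% interval -1.04 to -0.30, adjusted p = 0.063) and that of LAMB1 -0.30 (adjusted p = 0.171). LAMA3 reached -0.43 (adjusted p = 0.268) and HSPG2 -0.30 (adjusted p = 0.468). LAMB3 and LAMC1 had 0.33 and 0.09. This fit, which was chosen after the data were seen, called 0 of the 6 genes and 3.36% of all genes.

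**Figure D3:**
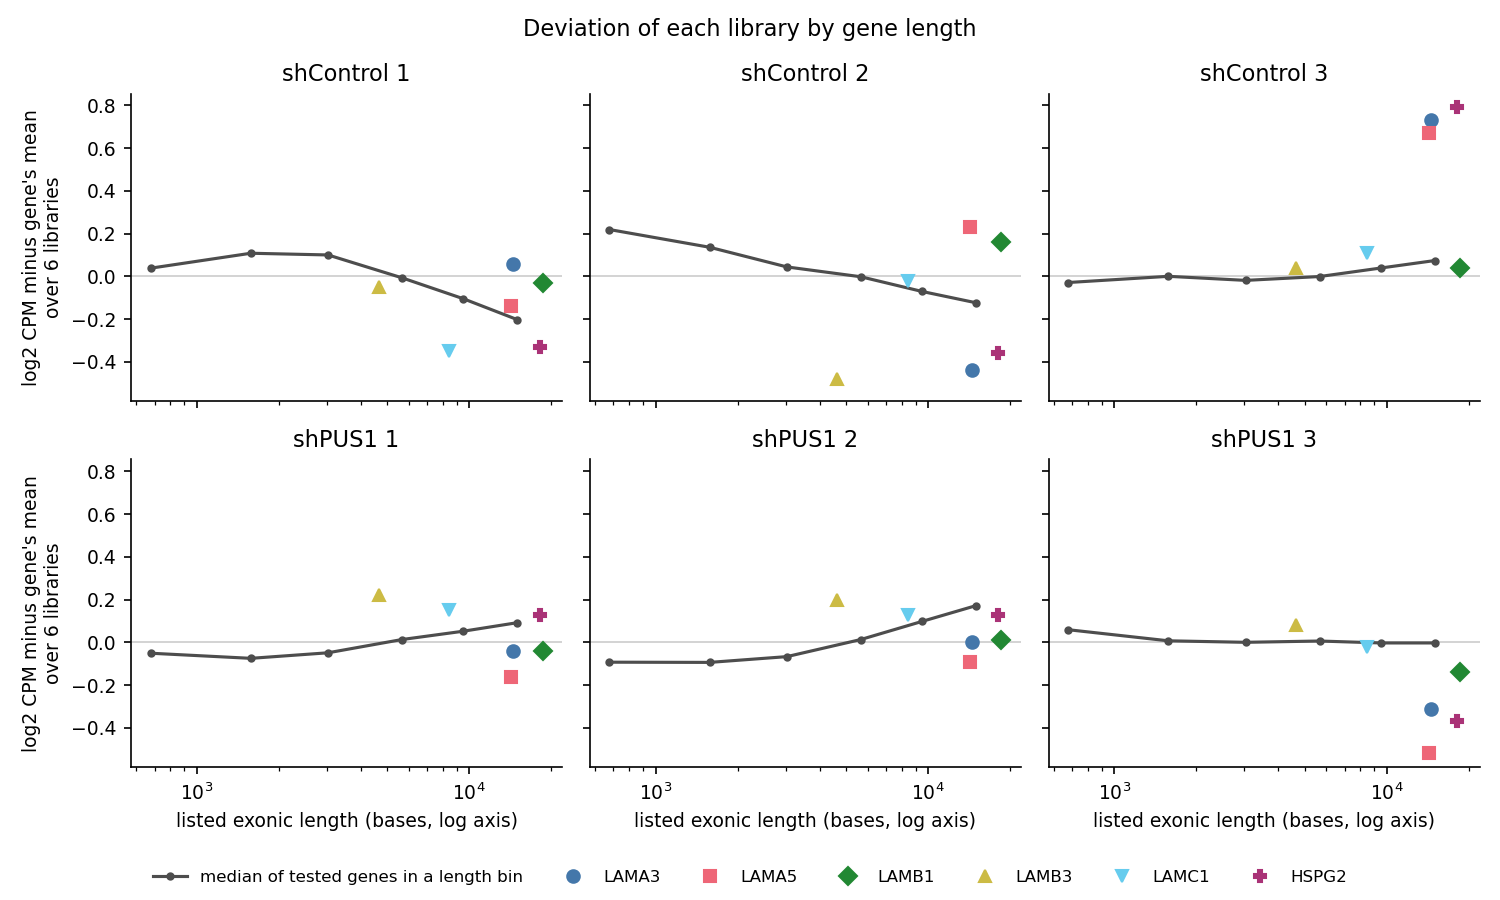
Deviation of log2 CPM from each gene's mean over the 6 libraries (y axis) against listed exonic length in bases (log axis), 1 panel per library. The grey line joins the medians of all tested genes in 6 length bins, falling to -0.203 for the longest genes in shControl 1 and rising to 0.172 in shPUS1 2, and the coloured points are the 6 tested genes.

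A laminin trimer needs chains of each class, so every alpha and beta chain was also expressed as a share of the summed FPKM of its class within a library. LAMA5 made up 74.72%, 84.19% and 76.75% of the alpha chains in shControl and 73.74%, 73.91% and 72.15% in shPUS1. Each shPUS1 library was below each shControl library, and the means differed by -5.288 percentage points (exact two-sided permutation test, p = 0.1, the smallest that 3 against 3 libraries allow). Without shControl replicate 2 the difference was -2.468 points. LAMA3 held 23.08%, 14.23% and 21.52% in shControl and 21.64%, 21.15% and 22.38% in shPUS1, with overlapping groups (exact p = 0.8).

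Most of the remainder came from LAMA1 and LAMA2, the latter at 0.6218% to 1.692%. LAMA1 is an alpha chain known from embryonic and kidney basement membranes, and its share was 1.431%, 0.6518% and 1.002% in shControl and 3.637%, 4.067% and 3.692% in shPUS1 (exact p = 0.1). In FPKM it had 0.24, 0.12 and 0.29 in shControl and 0.59, 0.7 and 0.48 in shPUS1. The groups did not overlap, but its log2 fold change of 1.5 (SE 0.33, 95% interval 0.73 to 2.28) had an adjusted p of 0.0575 in edgeR's test. DESeq2 (1.51, adjusted p = 0.001) and the fit without shControl replicate 2 (1.21, adjusted p = 0.00767) placed it past the threshold, whereas the adjusted p was 0.11 without shControl replicate 1, 0.187 to 0.268 without a shPUS1 library and 0.129 with the replicate block. The fits without shControl replicate 1, without a shPUS1 library and with the replicate block called no more than 18 of all genes each. DESeq2 and the fit without shControl replicate 2 called 12.7% and 19.2%.

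In the beta class LAMB3 took 68.74%, 66.36% and 65.9% of the FPKM in shControl and 68.18%, 67.64% and 68.46% in shPUS1, a difference of 1.09 percentage points with overlap (exact p = 0.4). LAMB1 took 6.333%, 9.467% and 6.033% in shControl and 5.192%, 5.388% and 5.394% in shPUS1, without overlap (exact p = 0.1). The difference in the LAMB1 share was -1.953 percentage points and -0.8585 without shControl replicate 2. Per kilobase of the longest coding transcripts LAMB1 took 16.37%, 23.23% and 15.62% in shControl and 13.66%, 14.12% and 14.15% in shPUS1, and the share of LAMB3 was then 54.52% to 60.12%. Most of the rest was LAMB2, a beta chain of vessel, kidney and synaptic basement membranes, at 24.15% to 28.06% over all libraries.

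Between these classes, alpha chains were few beside beta chains. The ratio of summed alpha to summed beta FPKM was 0.1187, 0.1782 and 0.1833 in shControl and 0.09804, 0.1029 and 0.08656 in shPUS1. The lowest shControl library was above the highest shPUS1 library, with a difference in means of -0.0642 (exact p = 0.1).

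**Figure D4:**
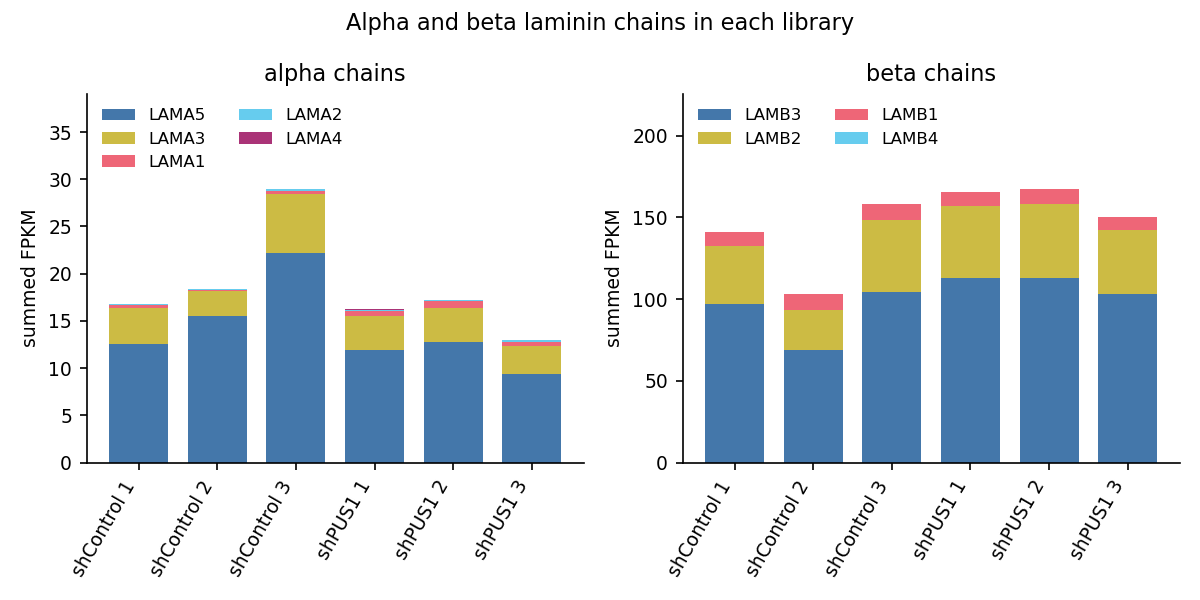
Summed FPKM of the alpha and beta laminin chains (y axis, a scale for each class) in each of the 6 libraries, stacked by gene. Alpha chains sum to 13 to 28.95 FPKM and are mostly LAMA5, and beta chains to 103.3 to 167.2 FPKM and are mostly LAMB3.

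The sums of both classes overlapped between the groups. Alpha chains summed to 16.77, 18.41 and 28.95 FPKM in shControl and 16.22, 17.21 and 13 FPKM in shPUS1 (exact p = 0.2). For beta chains the sums were 141.3, 103.3 and 158 FPKM in shControl and 165.4, 167.2 and 150.2 FPKM in shPUS1 (exact p = 0.2). In shControl replicate 2 the beta sum was the lowest, and in shControl replicate 3 the alpha sum was the highest.

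Ratios between 2 genes of a library need no scaling between libraries, and 6 of them were computed, chosen after the values had been seen. LAMB3 exceeded LAMA5 by 7.753, 4.423 and 4.685 times in shControl and by 9.431, 8.893 and 10.96 times in shPUS1. That is a mean difference of 0.84 on the log2 scale without overlap (exact p = 0.1), and of 1.01 with the length trend removed. LAMC1 over LAMA5 was 2.8, 2.705 and 2.198 in shControl and 4.011, 3.762 and 4.566 in shPUS1, a log2 difference of 0.68 without overlap. LAMB3 over LAMC1 was 2.769, 1.635 and 2.132 in shControl and 2.351, 2.364 and 2.4 in shPUS1, with overlap (exact p = 0.7). The log2 difference was 0.56 for LAMB3 over LAMA3, 0.44 for HSPG2 over LAMA5 and 0.29 for LAMC1 over LAMB1, each without overlap (exact p = 0.1). With the length trend removed, the groups overlapped for LAMC1 over LAMB1.

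Further laminin chains were read from a fixed list. Of 5 chains, 3 passed the filter and 0 were called, with 1 (LAMA1) at an unadjusted p under 0.05 (25.5% of all genes). LAMB2 had 35.22, 24.95 and 44.33 FPKM in shControl and 44.04, 45.08 and 39.26 FPKM in shPUS1 (log2 fold change 0.33, adjusted p = 0.307). Like LAMB3, LAMB2 was lowest in shControl replicate 2. LAMA2, the alpha chain of muscle, lay between 0.12 and 0.22 FPKM (log2 fold change 0.12, adjusted p = 0.857). LAMB4 did not exceed 0.02 FPKM, and LAMC3 was listed at 0.01 FPKM in each shControl library and at 0 in each shPUS1 library, from 2, 2 and 1 counts against 0.

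Other components of the basement membrane numbered 29, of which 21 were tested and 1 was called, beside 2.58% of all genes. That was TINAGL1, a secreted matrix protein of basement membranes, with 13, 13.37 and 13.93 FPKM in shControl and 19.32, 19.2 and 19.15 FPKM in shPUS1. It rose by 0.54 on the log2 scale (SE 0.11, adjusted p = 0.0467), without overlap. The call was lost without library scaling (adjusted p = 0.0516) and when shControl replicate 1 or 3 or any shPUS1 library was left out. Without shControl replicate 1 or a shPUS1 library, no more than 11 of all genes were called. The count at an unadjusted p under 0.05 was 5 of 21, beside 25.5% of all genes, and the median log2 fold change of the 21 genes was 0.05. LOXL2, an oxidase that crosslinks collagen, was the highest of the list with 63.2, 58.58 and 72.71 FPKM in shControl and 54.6, 55.08 and 52.3 FPKM in shPUS1 (-0.24, adjusted p = 0.234).

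Receptors for laminin and other basement membrane proteins numbered 15, of which 14 were tested and 1 was called (2.58% of all genes). SDC2, a heparan sulfate proteoglycan of the cell surface, had 19.83, 15.32 and 16.85 FPKM in shControl and 32.35, 33.52 and 34.8 FPKM in shPUS1. The groups lay far apart for their spread, with a log2 fold change of 0.98 (SE 0.13, adjusted p = 0.0241). Leaving out shControl replicate 1 gave an adjusted p of 0.0608, and leaving out any shPUS1 library gave 0.158 to 0.192, in fits that called no more than 11 of all genes. The unadjusted p was under 0.05 for 8 of the 14 genes (25.5% of all genes), and the median log2 fold change of the 14 was -0.18. SDC4, another syndecan and the highest of the list, had 230.8, 158.6 and 192.2 FPKM in shControl and 152.7, 154.6 and 145.2 FPKM in shPUS1 (-0.34, adjusted p = 0.19).

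Among 16 enzymes that cut laminins, nidogens or perlecan, 9 were tested and 2 were called, where 2.58% of all genes were. MMP3, a secreted matrix metalloproteinase, had 2.8, 2.83 and 1.7 FPKM in shControl and 7.28, 7.41 and 6.78 FPKM in shPUS1 and rose by 1.56 on the log2 scale (SE 0.24, adjusted p = 0.0324). ADAMTS1, a secreted metalloproteinase with thrombospondin repeats, had 1.2, 0.76 and 0.93 FPKM in shControl and 2.1, 2.41 and 1.92 FPKM in shPUS1 and rose by 1.18 (SE 0.21, adjusted p = 0.0409). Both calls were lost without shControl replicate 1 or any shPUS1 library, where no more than 11 of all genes were called. That of ADAMTS1 was also lost without shControl replicate 3 (adjusted p = 0.0569). The median log2 fold change of the 9 genes was 0.49, with 5 at an unadjusted p under 0.05 (25.5% of all genes). MMP14, which is anchored in the cell membrane, was the highest of the list, with 119.2, 102.2 and 107.4 FPKM in shControl and 78.76, 73.27 and 83.01 FPKM in shPUS1 (-0.46, adjusted p = 0.0699).

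**Figure D5:**
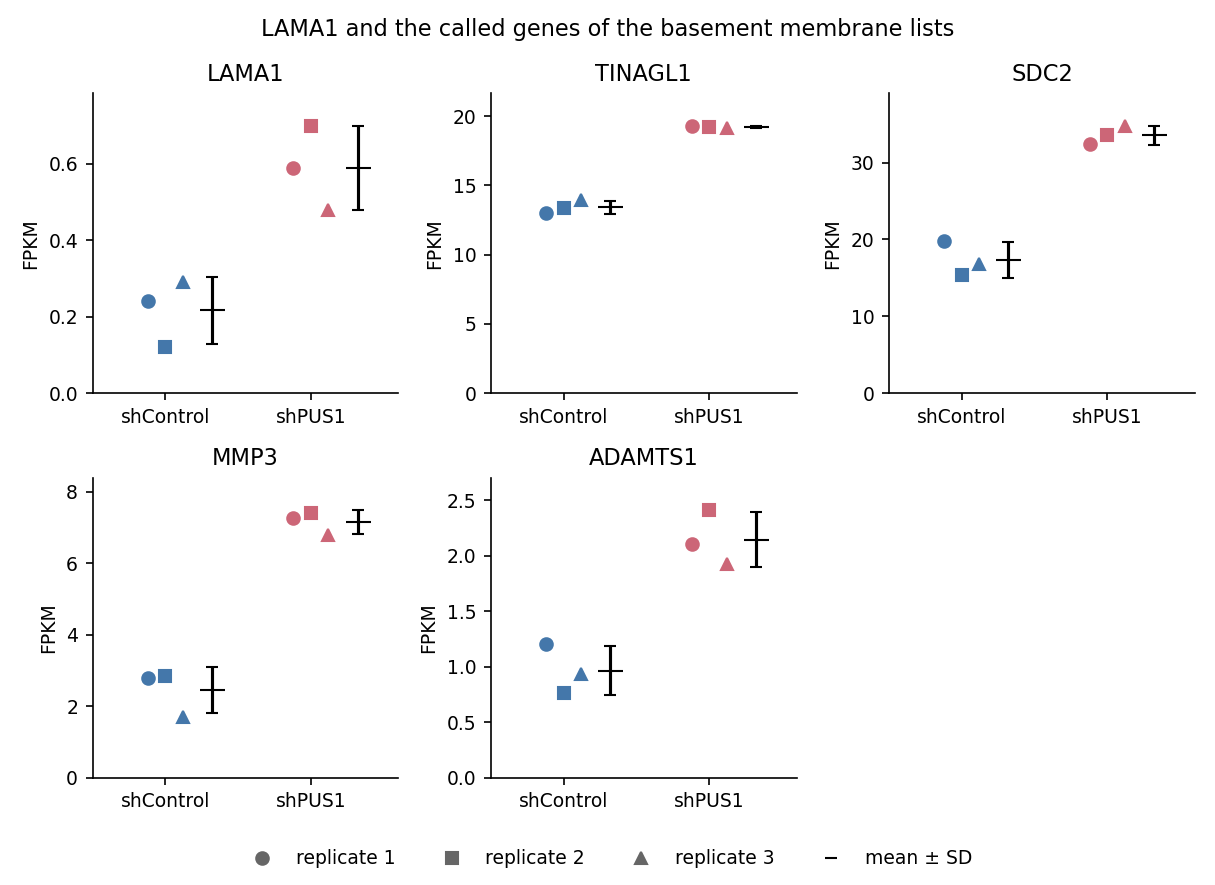
FPKM of LAMA1, which was not called, and of TINAGL1, SDC2, MMP3 and ADAMTS1, which were, in the 3 shControl (blue) and 3 shPUS1 (red) libraries, with the mean and SD beside each group. In each panel the shPUS1 libraries lie above the shControl libraries, from 0.48 to 0.7 FPKM against 0.12 to 0.29 FPKM for LAMA1.

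The course of each gene over the 6 libraries was compared with that of the protein-coding genes at a mean of 5 FPKM or more, as a Pearson r of log2 CPM and without a test, since all genes share the libraries and their depth. LAMB3 was most like ANKS1A (r = 0.999) and DCAF10 (r = 0.997), and 380 of the 6847 genes compared had an r above 0.95 with it. LAMC1 was most like NCOR1 (r = 0.999) and AFAP1 (r = 0.994). For LAMA5 the nearest were SBF1 (r = 0.988) and ITGB4 (r = 0.985), of 10 genes above 0.95. ITGB4 encodes the integrin subunit of hemidesmosomes. LAMA3 ran with ABCA2 (r = 0.993) and SLC30A7 (r = 0.988), LAMB1 with TSPO (r = 0.986) and USB1 (r = 0.985), and HSPG2 with CARD19 (r = 0.987) and ATP2B4 (r = 0.984).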

How the data were processed

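RNA sequencing in paired ends on an Illumina NovaSeq covered poly(A) RNA of MDA-MB-231 cells with the control or the PUS1 hairpin, in triplicate. The authors aligned the reads with Hisat2 and counted with HTSeq 0.6.1, per the submitters' processing notes. The deposited table gives estimated counts for each gene, of which 29.8% to 31.8% of those above 0 were not whole numbers, and FPKM values that the authors made from these counts, the listed exonic length and the library total. The study's methods do not say how the named counting gave values that are not whole. Genome build, annotation release, strandedness and the treatment of reads with several matches are not given in the sources used here. Positions of genes were taken from that table.

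Counts were rounded, filtered with filterByExpr (14748 of 60605 genes kept), scaled by TMM (factors 0.973 to 1.032) and fitted in edgeR 4.0.16 (R 4.3.3) by quasi-likelihood, with group as the only term and p adjusted over all genes tested by the Benjamini-Hochberg method, at a threshold of 0.05. The prior count of log2 CPM was 2. Shares and ratios were compared by exact permutation over libraries with scipy 1.17.1. Adjusted p-values over a list alone were not computed. Hairpin targets were taken from the study's supplementary list and located in GENCODE release 29. Overlap of a gene with others was measured as shared stretches of 100 bases in either orientation. Alternatives used DESeq2 1.42.0 and limma 3.58.1, with numpy 2.4.6, pandas 2.3.3 and matplotlib 3.10.9 for the rest in Python 3.11.15. Counts give no molecule identity, so limits from counts cover counting error only.

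Results of an item on the fixed lists, and those that need it, are not reported here. The 9 genes, the lists and the tests were chosen with earlier results of these data known. Named were the 9 genes, PUS1, further laminin chains, up to 4 called genes and the highest gene of each list, marker genes, and the 2 genes most like each member. Alternatives were DESeq2, other scaling, filters and pseudocounts, sample weights, a replicate block, shares of counts and each library left out. The gene length trend, the alpha to beta ratio, the lengths of coding transcripts and the ratios of 2 genes were added later, with the data seen. Replicate numbers were not taken as pairs: across genes, the deviations of equally numbered libraries from their group means correlated at -0.05, -0.03 and -0.19.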

Additional observations from a re-analysis of the deposited data

How the results depend on the processing

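No alternative of the 17 called any of the members it tested, which were all 9 without the filter, 5 at a mean of at least 5 FPKM and 6 otherwise. Without shControl replicate 1 or a shPUS1 library, at most 11 of 14748 genes were called, so that 0 members there said little. The log2 fold changes of LAMA5 (-0.72 to -0.31), LAMB1 (-0.30 to -0.05), LAMB3 (0.17 to 0.41) and LAMC1 (0.04 to 0.28) kept their sign, with adjusted p from 0.063 upward, whereas leaving out shControl replicate 3 turned LAMA3 to 0.05 and HSPG2 to 0.32, the highest of their values without 1 library (the lowest, without shControl replicate 2, were -0.54 and -0.36). Without 1 library at a time, the fits of PUS1 gave -1.86 to -1.19 and lists gave 0 to 1 called for other laminin chains, 0 to 5 for other components, 0 to 7 for receptors and 0 to 4 for enzymes, the highest of each without shControl replicate 2. Without that library 19.2% of all genes were called. With the replicate block edgeR called 18 genes in all and 0 in each list, and PUS1 had -1.55 (adjusted p = 0.0969), though libraries of equal number did not deviate together. PUS1 also missed the threshold in limma with a pseudocount of 1 (-1.0, adjusted p = 0.0544) and 0.1 (-1.48, adjusted p = 0.0514). Of all genes tested, DESeq2 called 12.7%, the fit without the filter 1284 of 27010 and voom weights 3090 of 14748. The fit without TMM called 296 of 14748, the pseudocount of 0.1 gave 250 of 11519 and a mean of at least 5 FPKM 290 of 7107. Other laminin chains had 1 call with DESeq2, without the filter and with voom weights. Other components had 4 with DESeq2, 3 without the filter, 5 with voom, 2 with the length trend removed and 0 without TMM or with a pseudocount of 0.1. Receptors had 4 with DESeq2, 4 without the filter and 8 with voom. Enzymes had 5 with voom, 1 with a pseudocount of 0.1 and 0 at a mean of at least 5 FPKM. That last filter left MMP3 and ADAMTS1 untested, as their means were 4.8 and 1.553 FPKM. The causes of the other shifts were not tested. The difference in the LAMB3 share of 1.09 points became 2.909 in counts, 2.809 per coding transcript and 2.379 without the length trend, and that in the alpha to beta ratio -0.137 in counts. The depth limits LAMA4, NID1 and NID2, with at most 15 counts in a library.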
